A study of Rattus norvegicus with 8 samples.

Results

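The probes described here gave a signal above the scanner software's detection call on all 4 ovary arrays labelled PMSG and on none of the 4 labelled control. They number 88 of 30350 probes, carry 87 different gene names, and 63 of them bear a gene symbol. They were chosen by the scanner software's detection flags. The call is the flag for a spot well above background, and a probe counted as detected on an array when at least 0.5 of its usable spots had it. Since the flags of both labels made the choice, the members' differences between labels are given as a description, without a test. On the arrays labelled control a member has only an upper bound, and its fold is written as "at least". The mirrored rule, detection on all 4 control arrays and on no PMSG array, found 52 probes.

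The arrays carried ovary RNA of female rats aged 28 days. The rats of the PMSG label had received 50 IU of pregnant mare serum gonadotropin under the skin, in 0.2 ml of a phosphate buffer with albumin, at 26 days of age, and the control rats the buffer alone, and ovaries were taken 48 h later. Strain, and whether a replicate is 1 animal or a pool, are not given in the sources used here, so p-values measure the spread between these arrays. Directions follow the sample titles: Star, which brings cholesterol into mitochondria for steroid synthesis, stood lower on the arrays labelled PMSG by a log2 difference of -2.75, and Amh, a product of granulosa cells, higher by 3.03. The Star values had an SD of 1.24 (n = 4) on the PMSG arrays and 0.10 (n = 4) on the control arrays. Star is generally known to be raised by gonadotropins, so its direction here runs against that background. It was not the only hormone-responsive gene to do so. Every direction below rests on the titles alone.

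PMSG acts mainly through the follicle-stimulating hormone receptor of granulosa cells and is used in immature rats to bring on the growth of follicles. The ovary holds oocytes, granulosa and theca cells, stroma, vessels and immune cells, and a dissected ovary can carry pieces of oviduct and fat. In such a bulk sample, a change in the number of cells of a type and a change of RNA per cell cannot be told apart. All 8 ovary markers examined (Foxl2, Amh, Fshr, Inha, Zp3, Gdf9, Star and Cyp17a1) were detected on all 8 arrays.

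Signals are given as log2 of the processed signal relative to the 75th percentile of the same array, called the scaled log2 signal below. That percentile lay between 769 and 1103 signal units. The detection call was equal to a limit on the background-subtracted signal of the spot, which lay between 10.4 and 14.5 units by array, or between -6.59 and -6.08 on the scaled log2 signal. The members therefore lie in the faintest part of the measured range: their median processed signal was 13.9 to 21.8 units on the arrays labelled PMSG and 5.55 to 6.71 units on those labelled control.

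Of the 80 members with a position in the array's rn4 annotation, 6 (7.50%) were mapped over a stretch longer than the 60 bases of the probe, as a probe across an exon junction is, beside 7.70% of tested probes. Their sequences are shown because they are the members that the annotation places in separated pieces of the genome. Each holds at least 1 reading frame without a stop codon in the given orientation. The files do not mark the joints, so no base is in capitals.
Catsperg1, chromosome 1 from 84323486 to 84323651, minus strand: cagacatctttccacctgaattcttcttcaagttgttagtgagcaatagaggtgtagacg
Mapk15, chromosome 7 from 114031069 to 114031235, plus strand: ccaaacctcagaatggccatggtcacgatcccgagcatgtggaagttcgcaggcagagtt
Tnfsf10, chromosome 2 from 113214957 to 113220001, plus strand: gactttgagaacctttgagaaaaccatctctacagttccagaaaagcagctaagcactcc
Defb4, chromosome 16 from 75442178 to 75445007, minus strand: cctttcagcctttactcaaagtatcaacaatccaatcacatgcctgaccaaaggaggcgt
Cyb5r2, chromosome 1 from 165135238 to 165135998, minus strand: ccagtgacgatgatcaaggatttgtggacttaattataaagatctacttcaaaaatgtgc
Dab1, chromosome 5 from 125625356 to 125625903, plus strand: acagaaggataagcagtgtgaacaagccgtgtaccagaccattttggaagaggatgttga

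Across the members the fold was at least 1.71 in the median, with bounds from 1.01 to 7.36. The bound reached 2-fold in 31 members, 3-fold in 8 and 4-fold in 3 (Atp6v1b1, Catsperg1 and Jph3). The bounds hold for the software's processed signal: with normexp background correction and an offset of 50, which pulls faint signals together, the measured log2 difference was 1.30 for Atp6v1b1, 1.13 for Catsperg1 and 0.80 for Jph3, and 2 members had a bound of at least 2-fold. The measured log2 difference had a median of 1.87 over the members, beside 0.11 over the 25303 probes detected on at least 4 arrays. It was at least 1 in 82 members, and over all tested probes 8.49% were higher and 5.47% lower by that much. Of the 88 members, 85 passed limma at an adjusted p under 0.05, where 17.6% of all tested probes were called higher in arrays labelled PMSG. The split of all calls was 4452 higher and 4206 lower, 2914 and 5534 with median centring, and 6982 and 4400 without PMSG array 4. The 4 PMSG values lay above the 4 control values without overlap in 82 members, and over all tested probes this held for 17.9%. The rule used this same contrast, so nothing is read from either count. The groups overlapped in Atp2c2, Ncan, Cyct, the olfactory receptor genes Olr1108 and Olr1155, and 1 probe without a gene name.

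The rule cuts through a continuous range of faint signals. Beside the 88 members, 155 probes were missed on 1 PMSG array and 144 were detected on 1 control array; 22943 probes were detected on all 8 arrays and 2996 on none. For each probe and array, the spot that decides the call was set against the array's limit by its background-subtracted signal. This ratio is not that of the scaled signal, which averages the processed signal over spots and can lie below the limit on an array where the probe was detected. By the deciding spot, the lowest PMSG array of a member stood at 1.198 times its limit in the median, and in 44 of the 88 members at less than 1.2 times. It stood at 2 times the limit or more in 7 members: Atp6v1b1, Catsperg1, Jph3, Abcg5, Tnfsf10, LOC365835 and the probe A_64_P114583. On the control side, the highest array of a member reached 0.814 of its limit in the median and more than 0.9 of it in 24 members. The member nearest to the limit on a PMSG array was Dab1, a signalling adaptor of neurons, at 1.002 times. Just outside the rule, Ephx2, an epoxide hydrolase, had 1 PMSG array at 0.999 of the limit, and the vomeronasal receptor gene Vom1r41 had 1 control array at 1.001. A probe of the mirrored set had its lowest control array at 1.54 times the limit in the median.

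The count moved with single arrays and with the form of the call. Without PMSG array 4, 168 probes met the rule, and without control array 3, 151 did. Leaving out an array removes a condition of the rule, so the count can only stay or rise, and all 88 members remained. PMSG array 4 was the lowest of the 4 in 38 members and PMSG array 1 the highest in 37. A common limit for all arrays was also set on the scaled log2 signal, at the highest of the 8. By it 100 probes met the rule, of which 41 were members. The other 47 members fell below that limit on at least 1 PMSG array. On control arrays no member could exceed it, since each lies under the array's own limit there. Nothing is read from that side. The software's milder flag, for a spot positive and significantly different from background, was met by all 88 members on every PMSG array. Nothing is read from that, since the stricter flag chose them there. Of the 88, 63 met the milder flag on all 4 control arrays too, and 1 met it on no control array. "Detected only" thus describes the position of the signal relative to the stricter limit. Of all probes, 83.4% ± 1.12 (SD, n = 4) were detected per PMSG array and 81.9% ± 0.972 (SD, n = 4) per control array (p = 0.0857, exact two-sided permutation test), and the limits themselves differed by 0.09 on the log2 scale (p = 0.571, exact two-sided permutation test).

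Among genes with a symbol, Catsperg1, Jph3 and Amtn had the largest bounds outside the ion pump and lipid transport families. Catsperg1 (RefSeq symbol Catsperg), an accessory subunit of the calcium channel of the sperm tail, had scaled log2 signals of -3.82, -3.12, -3.97 and -3.76 on PMSG arrays 1 to 4. On the control arrays it lay between -7.54 and -6.63, not well above background, and it was at least 7.10-fold higher with PMSG. A second Catsperg1 probe, on chromosome 1 from 84335272 to 84335331, was detected on all 8 arrays, at -4.13 ± 0.57 (SD, n = 4) with PMSG and -4.53 ± 0.39 (SD, n = 4) in controls, a difference of 0.40 that was not called. The 2 probes of the gene thus disagreed in size.

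Jph3 encodes junctophilin 3, a protein best known from neurons that holds the endoplasmic reticulum close to the cell surface. Its member probe (chromosome 19 from 52037547 to 52037606) gave -4.57, -4.33, -4.63 and -4.45 on PMSG arrays 1 to 4, a narrow range with an SD of 0.13. The control arrays lay between -8.55 and -6.82, and the fold was at least 4.00. The other Jph3 probe (52036223 to 52036282) was detected on all 8 arrays and pointed the other way, at -4.59 ± 0.46 (SD, n = 4) with PMSG and -4.08 ± 0.25 (SD, n = 4) in controls. Its difference of -0.51 was not called, but quantile normalization (-0.73) and median centring (-0.68) called it lower. Which of the 2 probes follows the main Jph3 transcript was not tested.

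Amtn encodes amelotin, a protein secreted by the cells that form tooth enamel. Its probe (chromosome 14 from 21231303 to 21231362) stood at -3.77 and -3.53 on PMSG arrays 1 and 2 and at -5.83 and -5.84 on PMSG arrays 3 and 4. The 4 PMSG arrays therefore formed a high and a low pair, with the widest SD of all members, 1.26. The control arrays lay between -8.92 and -8.61, at no more than 0.107 of their limits, and the fold was at least 3.37. Tbpl2, a relative of the TATA-binding protein that serves transcription in oocytes, gave -4.44, -4.44, -4.88 and -6.12 on PMSG arrays 1 to 4. Here only array 4 was low. By the deciding spot, the probe stood above the highest limit of the 8 arrays on all 4 PMSG arrays. Control values of Tbpl2 lay between -8.58 and -6.87, and its fold was at least 2.88.

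Germ cell genes other than Tbpl2 were also among the members. Dppa1, named for pluripotent cells, was at least 1.70-fold higher, with PMSG values from -6.05 to -5.43. Its other probe, which is not a member, gave -4.18 ± 0.33 (SD, n = 4) with PMSG and -6.16 ± 0.53 (SD, n = 4) in controls and was called higher, by 1.98. Nlrp4, of a family with several oocyte genes, was at least 1.69-fold higher, with PMSG values from -6.42 to -5.21. The 14 oocyte markers of a separate list (Zp1, Zp2, Zp3, Gdf9, Bmp15, Nobox, Figla, H1foo, Zar1, Mos, Dazl, Ddx4, Nlrp5 and Khdc3) were all tested with limma and all 14 were higher in arrays labelled PMSG (13 with quantile normalization), by 1.92 in the median. Over all tested probes 17.6% were called higher. The summed signal of the 14 markers, in multiples of the 75th percentile, was 14.1 to 27.9 on PMSG arrays and 3.90 to 6.90 on control arrays. Their part in the signal of the members was not tested.

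Lrrc71 and Dnahc3l are listed with the genes of motile cilia. Lrrc71, a leucine-rich repeat gene (chromosome 2 from 179796567 to 179796626), stood at -5.21, -4.91, -5.69 and -4.47 on PMSG arrays 1 to 4 and was at least 2.69-fold higher. Its other probe was detected on all PMSG arrays and 1 control array and was called higher, by 1.78. Dnahc3l, an axonemal dynein heavy chain, was at least 1.67-fold higher by its member probe, and the differences of its 3 other probes were 1.05, 1.58 and 1.37, of which the second was called. Mapk15, an atypical MAP kinase linked to ciliated cells, stood at -5.42, -4.88, -5.32 and -4.63 on PMSG arrays 1 to 4, between -7.29 and -6.65 on control arrays, and was at least 2.70-fold higher. Of 12 markers of oviduct and ciliated epithelium on the array, 10 were higher in arrays labelled PMSG, among them Foxj1, the master regulator of motile cilia, by 1.67 (SE 0.27), and 2, Krt8 and Epcam, did not pass. With the authors' deposited log2 values 9 were called. In the main fit 17.6% of all tested probes were called higher. The list's summed signal was 42.1 to 63.9 with PMSG and 21.5 to 29.2 in controls, and their part in the members' signal was not tested.

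Some named members were immune genes, and like the other members they lay in the faint part of the measured range. Tnfsf10, which encodes the death ligand TRAIL, was spotted 10 times per array, and its signal was above the limit in 40 of 40 usable spots on PMSG arrays and in 0 of 39 on control arrays. Its scaled log2 signals were -4.87, -5.01, -5.19 and -5.59 on PMSG arrays 1 to 4 and between -8.47 and -7.54 on control arrays, a fold of at least 2.51. The beta-defensin gene Defb4 was above the limit in 39 of 40 spots with PMSG and in 6 of 38 in controls, and was at least 2.15-fold higher. Klrb1a, a receptor of natural killer cells with 10 spots, was above in 26 of 37 spots with PMSG and 1 of 35 in controls. These spot counts are of the flags that chose the members, and spots of 1 array are repeat measurements of the same RNA. Siglec5, a lectin of myeloid cells, was at least 2.01-fold higher, the pentraxin gene Mptx at least 1.97-fold, and Klrd1, the natural killer cell receptor subunit CD94, at least 1.95-fold. Of 7 leukocyte markers tested, Ptprc, Cd68, Aif1 and Laptm5 were higher in arrays labelled PMSG, by 0.51 to 0.69 (3 of the 7 with median centring); Csf1r, Cd3e and Cd79b did not pass, and the B cell marker Ms4a1 was detected on no array. The share called higher over all tested probes was 17.6%. The summed signal of the leukocyte list was 11.2 to 12.6 with PMSG and 6.99 to 8.75 in controls, and its part in the members' signal was not tested.

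Signalling genes made up a further set. Oprk1, the kappa opioid receptor, had PMSG values from -5.95 to -4.55 and was at least 2.16-fold higher; its other probe was detected on no array. Adcy8, an adenylyl cyclase activated by calcium, was above the limit in 32 of 35 spots with PMSG and in 3 of 39 in controls, and was at least 2.04-fold higher. March11, a membrane-bound ubiquitin ligase, was at least 1.95-fold higher. The lowest PMSG arrays of Oprk1 and Adcy8 stood at 1.08 and 1.03 times their limits, so these 2 rest on a small margin. The 2 remaining members with 10 spots per array were Dab1, above the limit in 25 of 37 spots with PMSG and 1 of 38 in controls, and Acsm2a, a mitochondrial acyl-CoA synthetase gene, above in 26 of 39 and 10 of 38. Of 8 neuron markers tested, Elavl4 (0.73) and Uchl1 (0.54) were higher, Tubb3 was lower (-1.68), and Syt1, a vesicle protein of synapses, was detected on no array. Over all tested probes 17.6% were called higher and 16.6% lower. The summed signal of the neuron list was 15.6 to 20.8 with PMSG and 14.1 to 17.8 in controls. That sum mostly follows Uchl1, by far the brightest gene of the list, with a mean scaled log2 signal of 4.00 with PMSG and 3.47 in controls. Tubb3 had 0.26 and 1.94. Over the other scalings 1 to 3 of its genes were called higher and 1 or 2 lower, and its part in the members' signal was not tested.

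Regulators and structural genes completed the set of symbol genes with the largest bounds. Krtap3-3l1, a keratin-associated protein gene of hair, stood at -4.40, -5.66, -4.63 and -5.42 on PMSG arrays 1 to 4 and was at least 2.76-fold higher. Tspyl3 was at least 2.42-fold higher with a narrow PMSG range from -5.41 to -5.02. The zinc finger gene Zfp286a was at least 2.23-fold higher by its member probe, and its other probe was detected on no array. Khdrbs2, an RNA-binding splicing regulator, was at least 2.19-fold higher, and Cdx2, a homeobox gene of intestine and early embryo, at least 2.18-fold. Timm8a2, of a family of mitochondrial import chaperones, was at least 1.91-fold higher, and its other probe differed by 0.49, which was not called (but was with the replicate block and among probes detected on all 8 arrays). Pom121l2, a gene resembling the nuclear pore gene Pom121, was at least 2.15-fold higher by its member probe (chromosome 17 from 50182621 to 50182680), while the other probe (50179200 to 50179259) gave -5.50 ± 0.55 (SD, n = 4) with PMSG and -4.14 ± 0.43 (SD, n = 4) in controls and was called lower, by -1.36. The 2 Pom121l2 probes therefore ran in opposite directions.

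The largest bound of all members was that of Atp6v1b1, the B1 subunit of the V-type proton pump, known from acid-secreting cells of the kidney. It gave -3.45, -3.42, -4.29 and -3.30 on PMSG arrays 1 to 4 (chromosome 4 from 117949969 to 117950028) and between -8.91 and -7.76 on control arrays, a fold of at least 7.36. PMSG array 3 was lower than the other 3. Of the 23 other genes of the pump, all tested with limma, 13 were lower in arrays labelled PMSG and none was called higher, beside 16.6% of all tested probes called lower. Atp6v1b2, which encodes the widely expressed alternative B subunit, differed by -0.57 (SE 0.09), and Atp6v0a4, a partner of B1 in kidney, by -1.14 (SE 0.10). The count of lower subunits was 11 with quantile normalization, 14 with median centring and 9 with the replicate number as a block. The summed signal of the 24 genes was 57.5 to 63.6 on PMSG arrays and 78.0 to 86.0 on control arrays. Of the other markers of acid-secreting epithelium, Slc26a4 was higher (1.73), Atp6v0a4 and Car2 were lower (-0.92 for Car2, a call lost with the replicate number or the slide row as a block), and Foxi1, their transcription factor, differed by -0.10. Slc4a1, Atp6v1g3, Atp6v1c2 and Atp6v0d2 differed by -1.03, 0.76, 0.31 and -0.28 and were not called. The summed signal of all 9 markers of that list, the member Atp6v1b1 included, was 1.65 to 2.47 with PMSG and 2.69 to 5.27 in controls. Car2 was the brightest of them, with a mean of 0.11 with PMSG and 1.03 in controls. Slc4a1 is also among the red cell genes below and had an SD of 1.06 on control arrays. The sum therefore does not follow the list as a whole. Of the lists for other tissue that an ovary sample can carry, 1 of 8 adipocyte genes (Cidea) was higher. Of 8 striated muscle genes 3 were higher (1 or 2 under the alternatives) and 1 lower. Of 4 red cell genes 1 was lower (2 with median centring, normexp or the replicate block). These counts stand beside 17.6% of all tested probes called higher and 16.6% called lower, and nothing is read from them.

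Abcg5 and Abcg8 encode the partner proteins of the transporter that exports plant sterols and cholesterol. Abcg5 gave -3.81, -4.92, -5.10 and -4.38 on PMSG arrays 1 to 4 (chromosome 6 from 8028067 to 8028126) and between -8.26 and -6.70 on control arrays, and was at least 3.85-fold higher. Abcg8 was detected on none of the 8 arrays. Of the other 4 genes of the family tested, Abcg1, a cholesterol exporter, was higher by 0.89 (SE 0.18), and Abcg2, Abcg3l1 and Abcg4 did not pass. Among the 6 tested genes of the sperm calcium channel complex, Catsperd was called higher (0.75), but not with quantile normalization or median centring. Of the 4 junctophilin genes Jph1 was called higher (0.90), but not with quantile normalization or normexp. In these lists Catsperg1 and Jph3 were read by their other probes (0.40 and -0.51, not called), which are not members. Over all tested probes 17.6% were called higher. The remaining named family members were Krt2, a keratin, at least 1.91-fold higher, Mylip, a ubiquitin ligase for the LDL receptor, at least 1.44-fold, and Cldn20, a tight junction claudin, at least 1.39-fold with the smallest PMSG spread of all members, an SD of 0.05. A second Mylip probe, detected on all 8 arrays, stood at 1.26 ± 0.35 (SD, n = 4) with PMSG and -0.65 ± 0.07 (SD, n = 4) in controls and was called higher, by 1.91.

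Of the members without a gene symbol, 4 had the largest bounds. LOC690437 (chromosome 9 from 73710674 to 73710733) gave -5.38, -4.28, -4.87 and -4.16 on PMSG arrays 1 to 4, a fold of at least 3.45. Its other probe, which shares a run of 39 bases with it, was detected on all 8 arrays, at -2.24 ± 0.51 (SD, n = 4) with PMSG and -3.82 ± 0.27 (SD, n = 4) in controls, and was called higher, by 1.57. Both LOC690437 probes thus pointed the same way. The probe A_64_P114583 (chromosome 5 from 76827665 to 76827724) gave -3.20, -5.11, -4.86 and -5.78, with array 1 far above the others, and was at least 3.38-fold higher. LOC365835 (chromosome 2 from 177944529 to 177944588) gave -4.82, -4.28, -4.89 and -4.99, a fold of at least 3.30, while control array 3 reached 0.991 of its limit. LOC501718 (chromosome 10 from 86084245 to 86084304) gave -4.45, -5.12, -5.39 and -4.85, a fold of at least 2.91. The 21 remaining members without a symbol had bounds from 1.26 to 2.79 and the 32 remaining symbol probes from 1.01 to 1.81. RGD1311224 (RefSeq symbol Fads2b) supplied 2 members whose probes share 55 bases, so they are 1 measurement site.

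Other probes of the member genes number 25 and belong to 21 genes; 11 were detected on all 8 arrays and 3 on none. Of the 18 that were tested, 7 were called higher (LOC690437, Lrrc71, Fam227a, Dppa1, Dnahc3l, Hapln1 and Mylip) and 1 lower (Pom121l2), beside 34.2% called in either direction over all tested probes. The contrast is the one the rule used, so nothing is read from that count. Their median difference was 0.87. The member probes of the same genes had 2.11, a value that the rule selected, so the gap between these medians is a description of the choice. Hapln1, which links hyaluronan in the matrix around the oocyte, had 1 other probe called at 0.42, which lost its call with quantile normalization, median centring and normexp, and another at -0.25.

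Selp, the gene of the adhesion receptor P-selectin, has overlapping probes with different letters. Its member probe and its other probe overlap by 56 bases on chromosome 13 (79922078 to 79922137 and 79922082 to 79922141), and 8 of the 56 overlapping bases differ between them. The stretch of 30 bases with most differences is shown with the 6 differing bases in capitals (chr13:79922082-79922111, plus strand, rn4).
Selp member probe: ggGaaggtcctcCtttcgGtattttgGAcC
Selp other probe: ggAaaggtcctcTtttcgTtattttgTTcT
The member probe gave -5.34, -5.75, -5.45 and -6.59 on PMSG arrays 1 to 4 and between -7.90 and -6.87 on control arrays, a fold of at least 1.64. The other probe was detected on all 8 arrays, at 0.69 ± 0.59 (SD, n = 4) with PMSG and 0.71 ± 0.15 (SD, n = 4) in controls, a difference of -0.03. For the same place in the gene, one probe met the rule and the other showed no called difference. Setbp1, a gene encoding a nuclear DNA-binding protein, had such a pair too: 2 of 35 overlapping bases differed, the member was at least 1.21-fold higher, and the other probe, detected on all 8 arrays, differed by 0.33 and was not called. Which letters match the transcript of these rats was not tested.

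Some features that the rule did not use were tabulated for the members. Their 60-base probes had a median GC content of 42.5%, beside 45.0% over all tested probes. Of the members 9.09% had no position in the annotation, beside 2.74% of tested probes, and 15.9% were designed on predicted RefSeq transcripts, beside 7.53%. A run of at least 20 bases shared with another probe was found for 4.55% of members and 8.59% of all probes. RefSeq promoters of the GRCr8 assembly (250 bases before to 50 after a gene's start) matched 54 genes with member probes. The ratio of observed to expected CpG exceeded 0.6 in 19 of these 54 (35.2%), beside 60.1% of the 12475 promoters of tested probes and 21.4% of those of the 52 mirrored probes. These are shares of genes that also differ in signal level, and the part of signal level in them was not tested.

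Motifs on either strand were counted in the same promoters. The full cAMP response element TGACGTCA stood in 2 of 54 (Kctd8 and Nol4, 3.70%), beside 2.65% of promoters of tested probes. The core TGACG, which the full element contains, stood in 14.8%, beside 28.0%. The site CAAGGTCA of steroidogenic factor 1 stood in 1 (Asz1, 1.85%), beside 0.906%, and TATAAA in 7, beside 9.63%. No test was made of these shares.

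The 8 arrays lay on 1 slide in 2 rows, each with 2 arrays of either label. Within row 1 the members' median log2 difference was 1.87, beside 0.17 over all tested probes, and 87 of 88 did not overlap, beside 43.4% of tested probes with PMSG above control. Within row 2 the median was 1.76, beside 0.02, and 85 did not overlap, beside 26.3%. The rule used all of these arrays, so nothing is read from these values. The mirrored probes had a median bound of 1.90-fold, from 0.875 to 130, and 8 of 52 reached 4-fold, beside 3 of the 88 members.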

How the data were processed

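Ovary RNA was measured on 8 one-colour Agilent arrays, 4 per label. Scanner intensity per spot came, per the file headers, from Feature Extraction (Agilent, version 11.5.1.1), which places probes on rn4 (assembly version 3.4). The authors also deposited a log2 table, used as an alternative. Outlier spots were left out, log2 processed intensity was averaged per probe, and each array's 75th percentile was subtracted; 17 of 30367 probes were dropped and no spot was saturated. Probes detected on at least 4 of 8 arrays were fitted with limma 3.58.1 (R 4.3.3), Benjamini-Hochberg adjusted, threshold 0.05. The bound of a fold sets the PMSG mean against control arrays taken at the higher of their faintest detected spot and the probe's own value. Each listed gene was read by its brightest probe. In simulated data of this comparison with 25303 probes, 136 of 200 changed probes were recovered. These were 54 of 100 at a log2 size of 1 and 82 of 100 at a size of 2. The simulation changed far fewer probes than the 8658 called in the real data, so its recovery does not give the power there. In the same simulated data 10 unchanged probes were called. Named are the 20 symbol genes outside the families with the largest bound, every symbol gene inside one, and 4 probes without a symbol; further members were named, after their values were seen, for a second probe, an overlap, 10 spots or their place at the limit. Some genes that this rule names are not reported here. Members and lists were chosen with earlier results of these data known. The same replicate numbers did not pair the arrays (correlations of deviations from -0.02 to 0.18).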

Additional observations from a re-analysis of the deposited data

Results flagged for a closer look

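On PMSG array 3 the signal of Atp6v1b1, -4.29, lay apart from the other 3 PMSG arrays, which ranged from -3.45 to -3.30. Its gap was 0.853 of the group's whole range, above Dixon's critical value for 4 samples. Of 58 groups of 4 arrays examined this was the only 1, and chance alone passes about 1 in 20.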

How the results depend on the processing

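The count of 88 was 54, all members, when every spot had to be above the limit. The milder positive-and-significant flag chose 18 probes, of which 1 is a member (7 for the mirrored rule, 0 of them among its 52). At least 2 times the limit, chosen after seeing the data, left 7 (17 mirrored). Leaving out single arrays, which can only keep or raise the count, gave 102 to 168 probes, and 56 to 73 by the mirrored rule. The members' median log2 difference of 1.87 was 1.51 with quantile normalization, 1.70 with median centring and 0.39 with normexp, and 1.74 to 1.93 without single arrays. The 31 members at 2-fold became 16, 19 and 2 in that order, 81 with the floor at the faintest probe average, and 28 to 35 without single arrays. Called probes numbered 8658 and, with the replicate number as a block, 7346; without single arrays 6552 to 11382. Called other probes of member genes numbered 8, 10 with the replicate block, and 7 to 11 without single arrays; those of named genes numbered 5, 3 among probes detected on all 8 arrays, and 5 to 7. The difference in detected share, 1.54 percentage points, ran from 1.16 to 2.05. The placing of probes in coding sequence was not run. Causes were not tested; signals near the limit cap the precision.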
